A study of Mus musculus with 12 samples.

Results

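The genes described here are Atm, Atr, Chek1, Chek2, Brca1, Brca2, Msh6 and Trp63, which act in the DNA damage checkpoint and in DNA repair. They were taken by name from the expression table, 8 of its 23230 genes. Their transcripts were measured in mouse oocytes of a C57BL6/ICR hybrid strain that were either wild type (WT) or lacked both Zar1 and Zar2 after CRISPR-Cas9 editing of both genes (Zar1/2-null). ZAR1 and ZAR2 are oocyte proteins that bind maternal mRNAs. Growing oocytes came from 13.5-day-old females (the age on the labels, the study's methods giving a slightly younger one), fully grown oocytes, which still hold an intact germinal vesicle (GV), from 21-day-old females 44 h after PMSG, a gonadotropin that makes follicles grow, and ovulated metaphase II (MII) oocytes were collected 16 h after hCG, which triggers ovulation and was given 44 h after PMSG. Each of the 6 groups (2 genotypes and 3 stages) held 2 libraries of 10 oocytes. MII is used here as the label of the ovulated oocytes of both genotypes. The paper reports that ovulated null oocytes were arrested in metaphase I or were still in telophase of meiosis I. The meiotic stage of the sequenced null oocytes was not stated. Genotype and the meiotic stage reached may thus differ together at MII, and their separate parts were not tested. Zar1/2 loss affected every cell of the females from which the null oocytes came, and whether the 2 libraries of a group came from different females was not stated, so that p-values measure the spread between libraries.

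ATM and ATR are kinases that sense damaged DNA. ATM responds mainly to double-strand breaks and acts through the kinase CHK2, and ATR responds to stalled replication and single-stranded DNA and acts through CHK1. Both arms delay the cell cycle and recruit repair factors, among them BRCA1 and BRCA2 for repair by homologous recombination, whereas MSH6 recognises mispaired bases. In oocytes of primordial follicles, CHK2 activates the p53 relative p63, encoded by Trp63, to eliminate cells with unrepaired breaks. Fully grown oocytes have stopped transcription, and they deadenylate and degrade much of the maternal mRNA during meiotic maturation.

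The ends of these mRNAs are shown because maternal mRNAs are stored, translated or degraded according to the length of their poly(A) tails. In the longest coding transcript of each gene (GENCODE vM1 on the mm9 build, 8 of 8 genes matched), the last 100 bases held the polyadenylation hexamer AATAAA or ATTAAA in 6 of the 8 genes, against 80.5% of the 10609 expressed genes with such a transcript. The cytoplasmic polyadenylation element TTTTAT or TTTTAAT, searched on the sense strand, lay in these last 100 bases in 1 of the 8, Brca2, against 19.6% of the same 10609 genes. The sites of the 5 genes whose hexamer site lies wholly in the 3′ untranslated region are given 5′ to 3′, with the element and the hexamer in capitals. They lie at chr5:151372284-151372307 (+ strand, Brca2), chr17:88390196-88390219 (+ strand, Msh6), chr5:111303124-111303147 (+ strand, Chek2), chr11:101350086-101350109 (- strand, Brca1) and chr16:25892143-25892166 (+ strand, Trp63), and each has the same letters in the mm9 genome.
Brca2: TTTTATatacaaAATAAAcatagc
Msh6: acattatgatctAATAAActttat
Chek2: aaacacataatcATTAAAaagaat
Brca1: gttaatactgcaAATAAActaaat
Trp63: ataaaatttaaaAATAAAtgaaaa
The annotated 3′ untranslated region was 78 bases long in Msh6 and held no such element, 235 bases in Brca2 with 1 element, 1853 bases in Chek1 with 6, and 2798 bases in Trp63 with 8. An element is a match of letters, and neither polyadenylation nor binding was measured.

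Expression was quantified as FPKM, the number of mapped fragments for a gene divided by its exon length and by the size of the library, multiplied by a factor from the synthetic ERCC RNAs added to each lysate, so that a library of oocytes with less mRNA gets lower values. The factor ranged from 0.533 to 1 in growing and GV oocytes and from 0.225 to 0.283 in the 4 MII libraries. It is 1 in both WT growing libraries, each the reference for the libraries of its own replicate number. The paper lists a lower share of ERCC reads for WT growing replicate 2 than for replicate 1. On a common reference all replicate 2 values would therefore be higher relative to those of replicate 1. This bears on the spread between libraries and on every statement that libraries overlap or do not. From the spacing of the lowest values, 9550000 to 12800000 fragments, an approximate figure, stood behind a library. Of the 8 oocyte markers, 7 were at or above 1 FPKM in every group (Sohlh1 was below it), and 11 granulosa and cumulus markers summed to 4.81 to 29.8 FPKM, with Ptx3 listed at 0 in all 12 libraries. This sum was 25.9 and 29.8 FPKM in the WT and 13.7 and 21.6 FPKM in the null growing libraries, most of it Cyp19a1 and Nr5a2, and its part in the results was not tested. Cyp19a1 read 19.0 and 16.7 FPKM in WT and 7.72 and 2.53 FPKM in null growing oocytes, whereas Nr5a2 read 5.97 and 5.86 FPKM in WT and 11.5 and 8.18 FPKM in null growing oocytes. Immune markers summed to at most 3.19 FPKM and epithelial and stromal markers to at most 1.03 FPKM. Zar1l, the symbol of Zar2, read 639 and 644 FPKM in the WT and 17.5 and 13.2 FPKM in the null growing libraries, and was lower in the null libraries at the other stages too. Zar1 transcripts remained at 407 and 460 FPKM in the null growing libraries, against 603 and 725 FPKM in WT. They were lower in null GV oocytes too (136 and 203 FPKM against 439 and 423 FPKM) and higher in null MII oocytes (190 and 194 FPKM against 83.6 and 72.4 FPKM, log2 fold change 1.29, limma adjusted p = 0.000381).

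Chek1 was by far the most abundant of the 8 transcripts. On the scaled FPKM scale, which accounts for length, it made up 73.9% to 85.5% of their summed level in the 12 libraries. In WT growing oocytes the order of mean levels was Chek1 (280 FPKM), Msh6 (31.8), Brca2 (19.5), Trp63 (10.8), Brca1 (9.70), Atr (6.31), Chek2 (2.40) and Atm (0.575). Only the neighbours Trp63 and Brca1 had libraries that overlapped in this order, and Trp63 was above Brca1 within each WT growing library. In null MII oocytes the order was Chek1 (95.3 FPKM), Brca2 (10.3), Msh6 (3.88), Brca1 (3.03), Trp63 (1.91), Atr (0.872), Chek2 (0.0973) and Atm (0.0866), and only Chek2 and Atm overlapped. Msh6 lay above Brca2 in all 3 WT group means and below it in null GV and null MII oocytes, with overlapping libraries in WT MII, null growing and null GV oocytes. Within single libraries Msh6 was above Brca2 in every WT library and below it in every null GV and null MII library. In null growing oocytes it was below Brca2 in replicate 1 (16.5 against 16.6 FPKM) and above it in replicate 2 (20.7 against 15.9 FPKM).

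**Figure D1:**
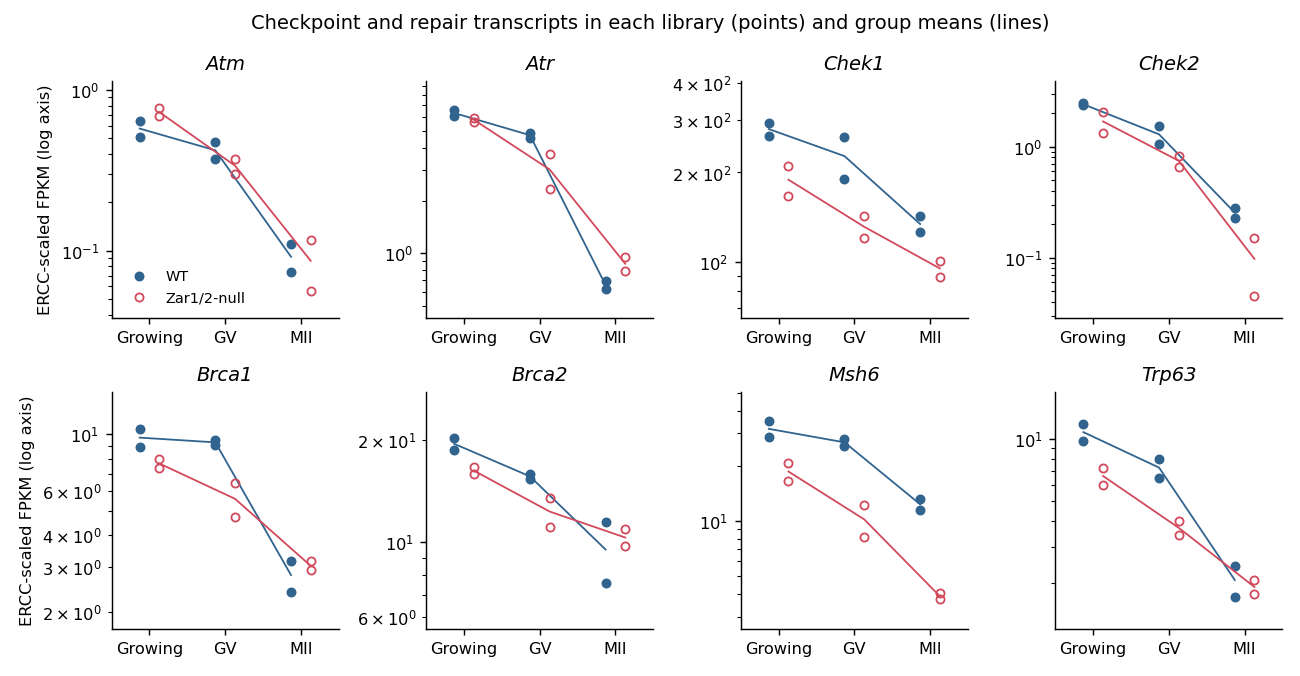
ERCC-scaled FPKM (log axis, a range of its own for each gene) of the 8 genes in growing, GV and MII oocytes. Each point is 1 library of 10 oocytes, filled for WT and open for Zar1/2-null, and lines join the group means (n = 2). Msh6, Chek1 and Chek2 lie lower in both null libraries than in both WT libraries at all 3 stages, whereas the Brca1, Brca2 and Trp63 points overlap at MII.

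Genotypes were compared with limma, fitted to log2(FPKM + 1) of the 12 libraries together, with the Benjamini-Hochberg adjustment taken over the 11502 genes that reached 1 FPKM in any library. A gene was called at an adjusted p under 0.05. For genes near or below 1 FPKM this scale understates the ratio of the levels. Of the 8 genes 7 were tested. Chek2 passed this filter only through its WT growing, null growing and WT GV libraries. An exact permutation test of 2 libraries against 2 can reach no p under 0.333, and the error was therefore estimated from the 6 groups jointly.

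The kinases at the head of the pathway differed in level. Atm, on chromosome 9 (chr9:53247254-53344845, - strand), read 0.643 and 0.507 FPKM in WT growing, 0.689 and 0.767 in null growing, 0.370 and 0.473 in WT GV, 0.374 and 0.302 in null GV, 0.110 and 0.0737 in WT MII and 0.117 and 0.0564 in null MII oocytes. It stayed below 1 FPKM in all 12 libraries and was therefore not tested. The growing libraries were highest and the MII libraries lowest in both genotypes. In growing oocytes both null libraries lay above both WT libraries, as for 22.4% of all genes, and the genotypes overlapped at GV and MII. An estimated 28 to 126 fragments stood behind each Atm value, for a counting error of up to 18.8%.

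Atr lies on the same chromosome (chr9:95758016-95852063, + strand). Its levels were 6.57 and 6.05 FPKM in WT and 5.64 and 5.91 FPKM in null growing oocytes, 4.87 and 4.57 FPKM in WT and 3.69 and 2.32 FPKM in null GV oocytes, and 0.623 and 0.693 FPKM in WT and 0.795 and 0.948 FPKM in null MII oocytes. With the ERCC factor divided out, the WT and null libraries of Atr overlapped at each stage. In the deposited values the null libraries were the lower ones in growing and GV oocytes and the higher ones at MII, without overlap. The difference passed the test only at GV (log2 fold change -0.53, SE 0.16, limma adjusted p = 0.0196), and there it missed the threshold without WT GV replicate 1 (-0.50, adjusted p = 0.104) and without null GV replicate 2 (-0.285, adjusted p = 0.13). In growing oocytes the log2 fold change was -0.11 (95% interval -0.46 to 0.24) and at MII 0.17 (-0.18 to 0.52).

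Chek1 encodes the kinase through which ATR acts (chr9:36516067-36534650, - strand). It read 294 and 266 FPKM in WT and 211 and 167 FPKM in null growing oocytes, 264 and 190 FPKM in WT and 120 and 143 FPKM in null GV oocytes, and 142 and 126 FPKM in WT and 101 and 89.5 FPKM in null MII oocytes. Both null libraries were below both WT libraries at each stage. The level fell in null growing oocytes (log2 fold change -0.57, SE 0.19, limma adjusted p = 0.041) and in null GV oocytes (-0.77, SE 0.19, adjusted p = 0.00886), and the MII value missed the threshold (-0.49, SE 0.19, adjusted p = 0.079; with the replicate block, adjusted p = 0.0423). The call in growing oocytes held in 7 of 12 fits that left out 1 library, missing the threshold without either WT growing replicate (adjusted p = 0.191 and 0.094), either WT MII replicate (0.0533 and 0.0535) or null growing replicate 2 (0.262), and the GV call in 10 of 12, missing the threshold without WT GV replicate 1 (adjusted p = 0.0882) or null GV replicate 1 (adjusted p = 0.0597).

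Chek2, the effector kinase of the ATM arm (chr5:111269036-111303152, + strand), was 112 to 980 times less abundant than Chek1 by group means, the upper value, that of null MII oocytes, being 1985 without replicate 1 and 676 without replicate 2. Its levels were 2.35 and 2.45 FPKM in WT and 1.34 and 2.03 FPKM in null growing oocytes, 1.52 and 1.06 FPKM in WT and 0.658 and 0.830 FPKM in null GV oocytes, and 0.279 and 0.229 FPKM in WT and 0.149 and 0.0451 FPKM in null MII oocytes. With the ERCC factor divided out, null growing replicate 2 (2.61 FPKM) lay above both WT growing libraries (2.35 and 2.45 FPKM). In the deposited values the null libraries were lower at each stage without overlap, but no genotype difference passed the test (log2 fold change -0.35 in growing oocytes with limma adjusted p = 0.0935, -0.39 at GV with 0.0604, and -0.19 at MII with 0.397). The MII values rest on few reads, an estimated 5 fragments in the lowest library, where counting alone gives an error of 44.4%.

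The recombination genes Brca1 (chr11:101350078-101413269, - strand) and Brca2 (chr5:151325205-151372321, + strand) differed in whether they passed the test. Brca1, which acts early in the repair of double-strand breaks, read 10.5 and 8.89 FPKM in WT and 7.38 and 7.96 FPKM in null growing oocytes, 9.52 and 9.07 FPKM in WT and 6.43 and 4.70 FPKM in null GV oocytes, and 2.39 and 3.18 FPKM in WT and 2.91 and 3.15 FPKM in null MII oocytes. It fell in null GV oocytes (log2 fold change -0.66, SE 0.16, limma adjusted p = 0.00833), was lower without passing the test in growing oocytes (-0.30, adjusted p = 0.182), and overlapped at MII (0.10, adjusted p = 0.748). The GV call missed the threshold without WT GV replicate 1 (adjusted p = 0.0563) or null GV replicate 2 (adjusted p = 0.0559).

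Brca2 encodes a protein that acts in the strand exchange step of homologous recombination. It read 20.4 and 18.7 FPKM in WT and 16.6 and 15.9 FPKM in null growing oocytes, 15.4 and 15.9 FPKM in WT and 13.5 and 11.1 FPKM in null GV oocytes, and 7.58 and 11.5 FPKM in WT and 9.74 and 10.9 FPKM in null MII oocytes. The null libraries were lower in growing and GV oocytes and lay between the WT libraries at MII, in the deposited values. No genotype difference of Brca2 passed the test, with intervals of -0.64 to 0.15 in growing, -0.72 to 0.07 in GV and -0.27 to 0.53 in MII oocytes on the log2 scale. Brca2 is the head-to-head neighbour of the edited gene Zar1l (chr5:151309630-151320739, - strand), and 4465 bases separate their annotated starts.

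Msh6, whose protein recognises mispaired bases in the mismatch repair pathway (chr17:88374390-88390223, + strand), had the largest log2 genotype difference of the 7 tested genes at GV and MII, also in 12 of 12 fits that left out 1 library. In growing oocytes it was the largest in 10 of 12 such fits, and Trp63 was the largest without WT growing replicate 2 or null growing replicate 1. It read 28.7 and 34.9 FPKM in WT and 16.5 and 20.7 FPKM in null growing oocytes, 27.9 and 25.7 FPKM in WT and 12.2 and 8.18 FPKM in null GV oocytes, and 11.4 and 13.2 FPKM in WT and 3.74 and 4.02 FPKM in null MII oocytes. Both null libraries were below both WT libraries at each stage. The WT mean was 1.71 times the null mean in growing, 2.63 times in GV and 3.18 times in MII oocytes. The level fell at all 3 stages (log2 fold change -0.75, SE 0.19, limma adjusted p = 0.0117 in growing oocytes; -1.34, SE 0.19, adjusted p = 0.000374 at GV; -1.45, SE 0.19, adjusted p = 0.000136 at MII). The GV and MII calls held in 12 of 12 fits that left out 1 library, and the call in growing oocytes in 10 of 12, missing the threshold without WT growing replicate 2 (adjusted p = 0.0926) or null growing replicate 1 (adjusted p = 0.0815).

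Trp63 lies on chromosome 16 (chr16:25683849-25892188, + strand), and 8 coding transcripts are annotated there, which the table does not separate. It read 11.8 and 9.75 FPKM in WT and 7.26 and 5.97 FPKM in null growing oocytes, 8.02 and 6.50 FPKM in WT and 3.99 and 3.42 FPKM in null GV oocytes, and 1.71 and 2.42 FPKM in WT and 2.06 and 1.76 FPKM in null MII oocytes. The genotypes were apart in growing and GV oocytes and overlapped at MII. The level fell in null growing oocytes (log2 fold change -0.63, SE 0.17, limma adjusted p = 0.0153) and in null GV oocytes (-0.81, SE 0.17, adjusted p = 0.0035), and the MII difference was -0.07 (adjusted p = 0.847). The call in growing oocytes missed the threshold without WT growing replicate 1 (adjusted p = 0.118) or null growing replicate 2 (adjusted p = 0.12), whereas the GV call held in 12 of 12 fits that left out 1 library.

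In growing oocytes 3 of the 7 tested genes thus fell and none rose, while 24.4% of all genes tested fell and 10.6% rose. In GV oocytes 5 of the 7 fell and none rose, while 40.6% of all genes fell and 2.83% rose. At MII only Msh6 fell and none rose, while 10.3% of all genes fell and 21.5% rose. The median log2 fold change of the 7 genes was -0.35, -0.66 and -0.07 at the 3 stages, beside -0.16, -0.38 and 0.06 over all genes. Relative to these medians of all genes, Msh6 differed by -0.59, -0.96 and -1.51 and Brca2 by -0.09, 0.05 and 0.07. In growing and in GV oocytes all 7 had lower deposited values in both null libraries than in both WT libraries, as had 47.4% and 63.6% of all genes. At MII 3 of the 7 (Chek1, Chek2 and Msh6) were lower without overlap, beside 27.8% of all genes. Atr alone was higher without overlap there, beside 43.5% of all genes. With the ERCC factor divided out, the genotypes overlapped in growing oocytes for Atr, Chek2, Brca1 and Brca2, and at GV for Atr, Brca1 and Brca2. A fold of more than 3 between group means, with means under 1 FPKM set to 1, was reached by Msh6 at MII alone, beside 1.32% of all genes that were that much lower there. Without WT MII replicate 2 none of the 7 reached it, and without null GV replicate 1 Msh6 also reached it at GV.

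These genotype calls depended on the ERCC factors, which were lower in null than in WT oocytes before ovulation. With the factor divided out of each library, none of the 7 genes was called in growing oocytes, where 12.3% of all genes were called lower and 14.9% higher. At GV Msh6 alone was called (log2 fold change -0.93, adjusted p = 0.0143), beside 13.5% of all genes lower and 7.19% higher. At MII the unscaled values gave 3 calls, Msh6 (-1.83, adjusted p = 4.52e-05), Chek1 (-0.73, adjusted p = 0.000713) and Chek2 (-0.66, adjusted p = 0.0186), all lower, beside 23.4% of all genes lower and 24.6% higher. Lower Msh6 at GV and MII was the call that all 3 scalings shared. Each library holds 10 oocytes, so less transcript in every oocyte and transcript in fewer of the 10 cannot be told apart.

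**Figure D2:**
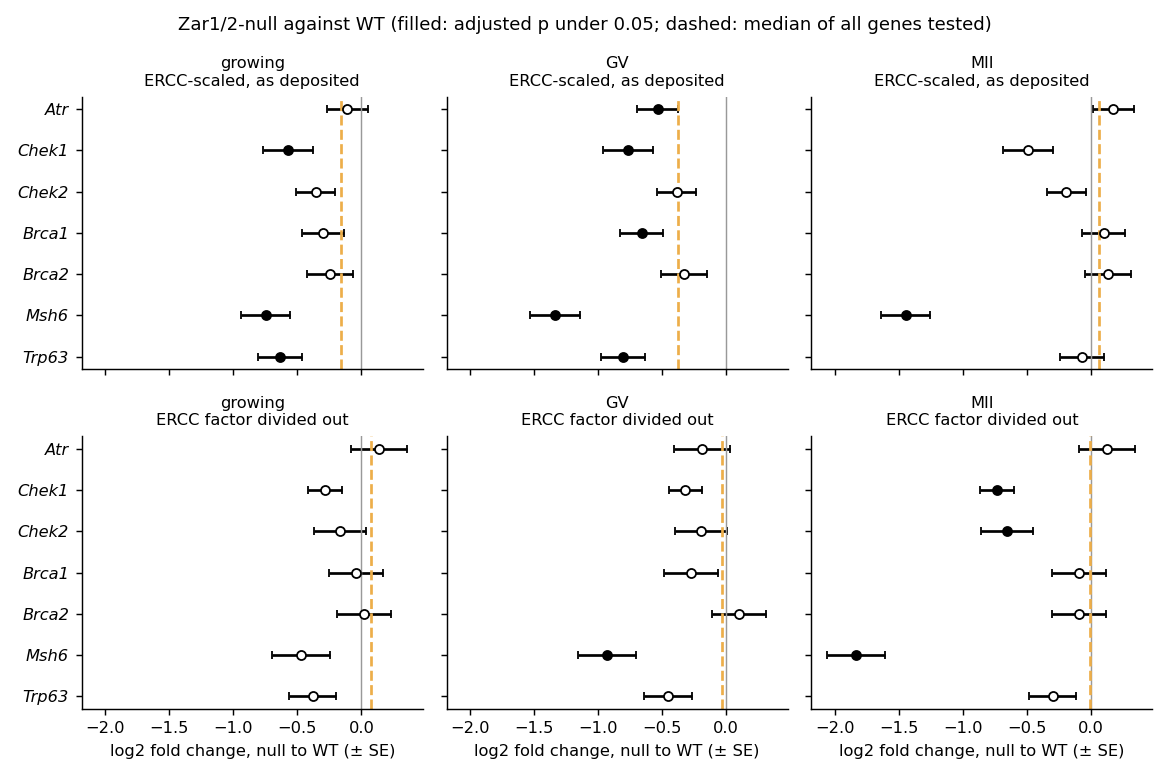
Log2 fold change of null to WT oocytes (points, with SE from limma) for the 7 tested genes at the 3 stages, with the deposited ERCC scaling (top) and with the ERCC factor divided out (bottom). Filled points have an adjusted p under 0.05 and the dashed line is the median of all 11502 genes. Msh6 is the leftmost point in every panel, at -1.34 and -0.93 at GV and at -1.45 and -1.83 at MII.

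During growth, from growing to GV oocytes, the WT levels of Chek2 (log2 fold change -0.58, limma adjusted p = 0.0174) and Trp63 (-0.51, adjusted p = 0.042) fell, beside 28.7% of all genes tested. Neither call held without WT GV replicate 2 (adjusted p = 0.126 and 0.25) or without either WT growing replicate, and that of Trp63 did not hold without either null MII replicate (adjusted p = 0.0585). In null oocytes 6 of the 7 fell between the same stages (log2 fold change -0.41 to -0.82), Brca2 being the exception (-0.38, adjusted p = 0.0879), beside 55.9% of all genes. Of these calls, that of Brca1 (adjusted p = 0.0485) held in 3 of 12 fits that left out 1 library and that of Chek1 (adjusted p = 0.0384) in 8 of 12, with adjusted p up to 0.299 and 0.233, and with the replicate block Brca1 missed the threshold (adjusted p = 0.0548). With the ERCC factor divided out, none of these growth calls was left in either genotype, and the log2 changes of Chek1, Brca1 and Brca2 turned positive in both and that of Msh6 in WT. The unscaled shares of all genes were then 3.23% lower and 3.66% higher in WT and 21.3% lower and 14.3% higher in null oocytes. No difference between the genotypes in this change passed the test for any of the 7 genes (log2 values -0.59 for Msh6 to -0.03 for Chek2, adjusted p 0.174 to 0.941), beside 11.3% of all genes with a negative and 2.58% with a positive difference that passed. Without null GV replicate 1 that of Atr passed (-0.67, adjusted p = 0.0435).

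During maturation, from GV to MII, the scaled levels of all 7 genes fell in WT oocytes, as did 93.4% of all genes tested. The log2 fold change was -1.79 for Atr, -1.45 for Brca1, -1.43 for Trp63, -1.07 for Msh6, -0.86 for Chek2, -0.74 for Chek1 and -0.69 for Brca2, beside a median of -1.28 over all genes. In null oocytes 5 of the 7 fell (log2 fold change -1.18 for Msh6, -1.08 for Atr, -0.69 for Brca1, -0.69 for Trp63 and -0.67 for Chek2), beside 68.7% of all genes and a median of -0.72. Chek1 (-0.46, adjusted p = 0.0546) and Brca2 (-0.23, adjusted p = 0.27) did not pass the test in null oocytes. These log2 values include the added 1 FPKM, so their order is not that of the ratios of the levels. By group means the GV level of Chek2 was 5.07 times its MII level in WT and 7.65 times in null oocytes. For Atr these ratios were 7.17 and 3.45. The MII levels of Chek2 rest on few fragments. The ovulated null oocytes may not have reached metaphase II, and the part of this in the null changes was not tested.

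The direction of this change turned with the scaling for some genes. With the ERCC factor divided out, WT levels rose from GV to MII for Chek1 (log2 fold change 1.01, adjusted p = 3.52e-05), Brca2 (0.97, adjusted p = 0.00166) and Msh6 (0.61, adjusted p = 0.0316) and fell for Atr (-0.88, adjusted p = 0.004), beside 19.7% of all genes that rose and 47.6% that fell. In the unscaled null libraries Chek1 (0.60, adjusted p = 0.00218) and Brca2 (0.78, adjusted p = 0.00753) rose and Chek2 (-0.79, adjusted p = 0.00549) and Atr (-0.56, adjusted p = 0.0436) fell, beside 19.5% of all genes that rose and 40.5% that fell. Msh6 did not pass the test there (-0.29, adjusted p = 0.29). Relative to the other transcripts of their library, Chek1 and Brca2 thus took a larger share of the measured FPKM at MII than at GV in both genotypes. The paper reports that poly(A) tails of several other maternal mRNAs lengthened on maturation in WT but not in null oocytes. Tail lengths of the genes described here were not measured, and their part in the measured levels was not tested.

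The knockout effect at MII minus that at GV was positive and passed the test for Atr (0.71, SE 0.23, limma adjusted p = 0.0323), Brca1 (0.76, SE 0.23, adjusted p = 0.0279) and Trp63 (0.74, SE 0.24, adjusted p = 0.0362), beside 33.9% of all genes. In the deposited values the null libraries of these 3 genes lay below the WT libraries at GV, and at MII they lay above them for Atr and overlapped them for Brca1 and Trp63. The median of all genes was 0.48 for this difference, and none of the 3 passed with the ERCC factor divided out (adjusted p = 0.529, 0.735 and 0.739), as 15.1% of all genes did. Leaving out 1 library ended the call in 7 of 12 fits for Atr, in 5 of 12 for Brca1 and in 5 of 12 for Trp63, each time including WT GV replicate 1, WT MII replicate 1, null GV replicate 2 and either null MII replicate (adjusted p up to 0.139). For Msh6 the difference was -0.11 (95% interval -0.71 to 0.49, adjusted p = 0.773).

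**Figure D3:**
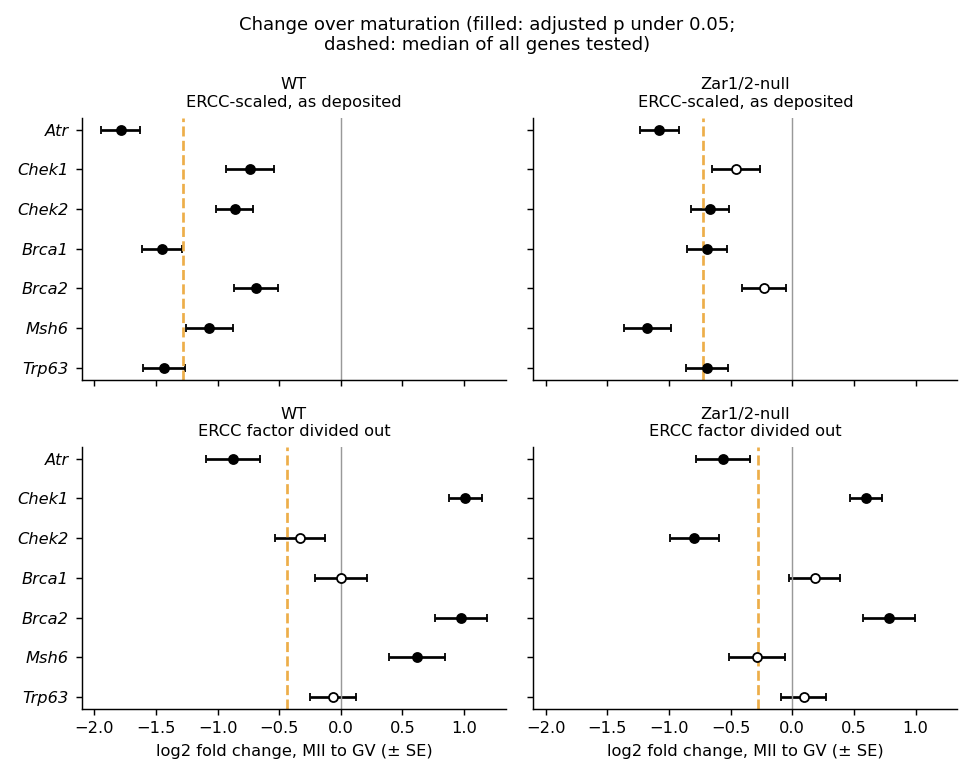
Log2 fold change from GV to MII oocytes (points, with SE from limma) for the 7 tested genes in WT and Zar1/2-null oocytes, with the deposited ERCC scaling (top) and with the factor divided out (bottom). Filled points have an adjusted p under 0.05 and the dashed line is the median of all 11502 genes. All points of the top panels lie below 0, and in the bottom panels Chek1 and Brca2 lie above 0 in both genotypes.

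A list of 125 further checkpoint and repair genes in 9 roles gave the setting of the 8 genes, and 117 of them were tested. In null growing oocytes 30 fell and 11 rose, which is 25.6% and 9.40% of the list against 24.4% and 10.6% of all genes. In null GV oocytes 53 fell and none rose, 45.3% of the list against 40.6% of all genes for the falls. In null MII oocytes 11 fell and 23 rose, 9.40% and 19.7% of the list against 10.3% and 21.5% of all genes. The list thus lay near all genes at each stage. The median log2 fold changes of the list, -0.16, -0.40 and 0.05, lay close to those of all genes at -0.16, -0.38 and 0.06. With the ERCC factor divided out, the counts were 9 lower and 18 higher in growing, 9 and 6 at GV and 25 and 22 at MII. Of all genes, 12.3% were then lower and 14.9% higher in growing oocytes, and 23.4% and 24.6% at MII. The GV counts by role stand beside the 40.6% of all genes that fell with the scaling, and beside 13.5% lower and 7.19% higher without it. Of 11 tested mismatch repair genes, the class of Msh6, 8 fell at GV (72.7%, median -0.66). In growing oocytes 5 of the 11 fell (45.5%, beside 24.4% of all genes). None of the 11 was called at either stage without the scaling. Of 22 tested genes of checkpoint kinase signalling, 13 fell at GV (59.1%, median -0.47), and 4 were called lower without the scaling. Homologous recombination genes fell in 6 of 17 cases at GV (35.3%, median -0.31), and without the scaling 3 were called lower and 3 higher. Genes of non-homologous end joining fell in 3 of 9 (33.3%, median -0.21), and without the scaling 1 was called lower and 2 higher.

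**Figure D4:**
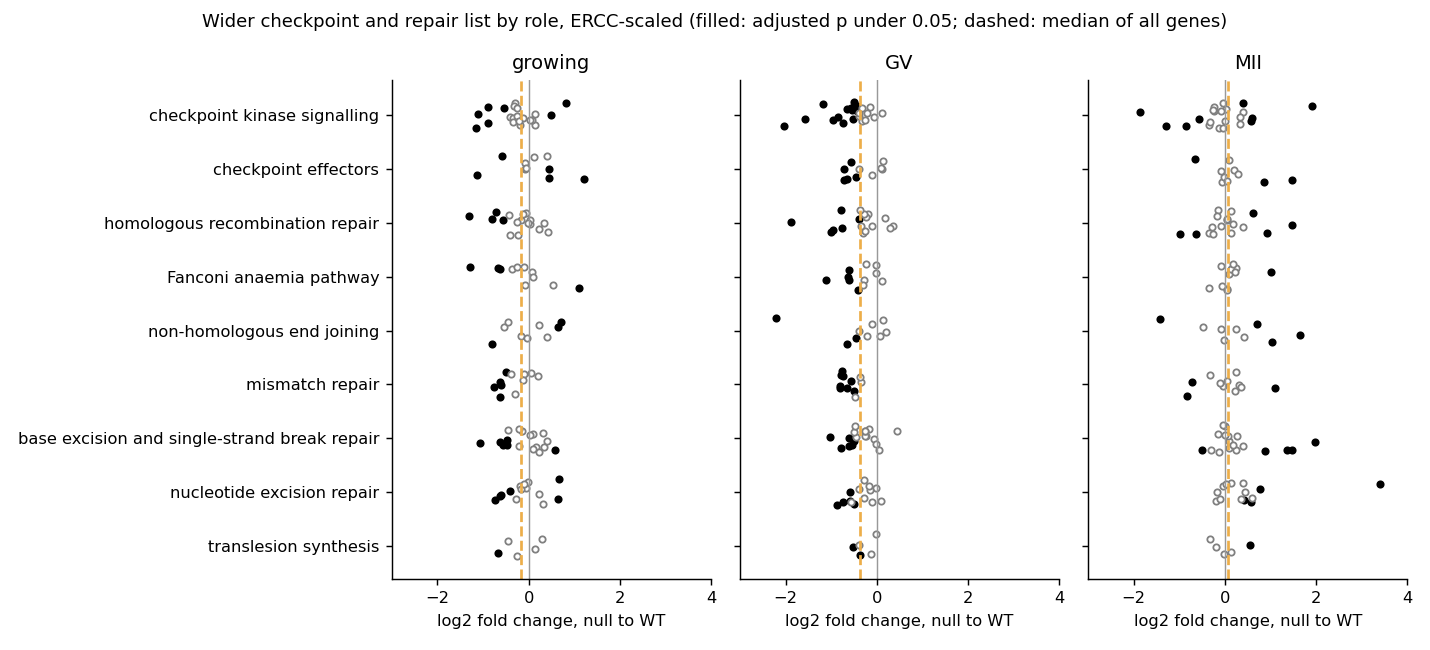
Log2 fold change of null to WT oocytes for the 117 tested genes of the wider list, by role, at the 3 stages, ERCC-scaled. Each point is a gene, filled at an adjusted p under 0.05, its place within a row is random, and the dashed line is the median of all 11502 genes. At GV the 53 filled points all lie below 0, and at MII 23 filled points lie above 0.

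Among the genes that load or support ATR, the clamp loader subunit Rad17 and the clamp subunit Rad1 stood out. Rad17 read 22.5 and 13.8 FPKM in WT and 3.56 and 3.54 FPKM in null GV oocytes (log2 fold change -2.03, limma adjusted p = 3.58e-05), and it also fell in growing (-1.16, adjusted p = 0.00109) and MII oocytes (-1.86, adjusted p = 2.08e-05). Rad1 fell in growing (-1.12, adjusted p = 0.000935) and GV oocytes (-1.57, adjusted p = 0.000107). At MII, where its WT mean was under the 5 FPKM set for naming, Rad1 read 5.57 and 3.77 FPKM in WT and 1.35 and 1.25 FPKM in null oocytes. Topbp1, which activates ATR, fell at GV (-1.19, adjusted p = 0.000714). The largest fall of the list at GV was that of Lig4, the ligase of non-homologous end joining, from 15.0 and 12.1 FPKM in WT to 1.97 and 2.32 FPKM in null oocytes (-2.20, adjusted p = 5.32e-06). The recombination gene Xrcc2 fell in growing (-1.31, adjusted p = 0.000965) and GV oocytes (-1.88, adjusted p = 9.66e-05). At MII the log2 fold change was -1.43 for Lig4, -0.98 for Xrcc2 and 0.33 for Topbp1. All falls given here with an adjusted p stayed past the threshold with the ERCC factor divided out.

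Other falls were those of Fancl, the ubiquitin ligase of the Fanconi pathway (-1.29 in growing oocytes, adjusted p = 0.000644), and Mdm4, a p53 inhibitor (-1.13 in growing oocytes, adjusted p = 0.00323, and -0.66 at MII, adjusted p = 0.0481). At MII the ubiquitin ligase Rnf168 (-0.86, adjusted p = 0.00124), the clamp loader subunit Rfc1 (-0.82, adjusted p = 0.00115) and the uracil glycosylase Smug1 (-0.51, adjusted p = 0.0109) fell. Genes that rose in null growing oocytes were Wee1, an inhibitory kinase of CDK1, from 7.56 and 7.95 FPKM to 18.2 and 20.2 FPKM (1.21, adjusted p = 0.000413), the histone gene H2afx (0.83, adjusted p = 0.00711), Polm (0.71, adjusted p = 0.031), Rad23b (0.63, adjusted p = 0.0229) and Nhej1 (0.64, adjusted p = 0.0333). The genes that rose most at MII were Cetn2, a centrin that also acts in nucleotide excision repair, from 3.14 and 3.10 FPKM in WT to 49.1 and 37.2 FPKM in null oocytes (3.41, adjusted p = 2.7e-07), Nthl1 (1.97, adjusted p = 3.19e-05), H2afx (1.92, adjusted p = 1.51e-05), Nhej1 (1.64, adjusted p = 8.65e-05) and Rad51l1 (1.48, adjusted p = 0.00125). Cetn2 read 170 and 120 FPKM in WT GV oocytes and 112 and 104 FPKM in null GV oocytes, so that its MII levels were below its GV levels in both genotypes.

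The transcripts most like each of the 7 genes were sought by Pearson's r of log2(FPKM + 1) over the 12 libraries, which all share the ERCC factors and the 3 stages, among genes that averaged 5 FPKM or more. For Msh6 they were Gxylt1 (r = 0.987), Ezh2 (0.985) and Akap10 (0.983), against a median r of 0.719 over all genes compared, and without the scaling r was 0.963, 0.894 and 0.926. For Brca2 they included Sap130 (0.983) and Helq (0.978), against a median of 0.831, and r was 0.913 and 0.985 unscaled. Chek1 was closest to Cd36 (0.993), 2410042D21Rik (0.992) and Lmbr1 (0.988), against a median of 0.764, and without the scaling r fell to 0.758, 0.784 and 0.420. The other 4 genes had high medians over all genes compared, so that a high r says little of them. Brca1 was closest to Topbp1 (0.990), Jak2 (0.990) and Mettl14 (0.988), with a median of 0.895. Atr was closest to 9630033F20Rik (0.995), Cdk12 (0.994) and Ammecr1l (0.993), with a median of 0.917. Chek2 was closest to Ppif (0.986), Ddx52 (0.986) and Mrpl45 (0.984), with a median of 0.875, and Trp63 to Plekhg1 (0.993), Sfmbt1 (0.992) and Tpx2 (0.991), with a median of 0.880. Without the scaling several of these values fell far, to -0.57 for Atr with Ammecr1l, -0.09 for Brca1 with Topbp1 and 0.19 for Trp63 with Sfmbt1. Others stayed higher, at 0.96 for Atr with 9630033F20Rik, 0.90 for Chek2 with Ppif and 0.88 for Brca1 with Jak2.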

How the data were processed

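The authors cut the paired-end Smart-seq2 reads to 50 bp, aligned them by TopHat2 2.1.1 against mm9 and, from unique alignments, quantified UCSC gene models by Cufflinks 2.2.1 (versions also in the submitters' processing notes). The authors deposited FPKM values multiplied by the share of ERCC reads in the WT growing library over that of the sample. These factors were recovered from the values, and the reference was the WT growing library with the same replicate number. The paper lists different shares of ERCC reads for the 2 WT growing libraries, lower in replicate 2, so that replicate 1 and replicate 2 values are not on a common scale.

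Genes that reached 1 FPKM in any library entered a model of group means on log2(FPKM + 1) over the 12 libraries, fitted by limma 3.58.1 (R 4.3.3) with eBayes and an intensity trend. Named genes of the wider list were the up to 5 per direction and stage with the largest fold among those called, with a mean of at least 5 FPKM and no overlap between genotypes. Likeness names the 3 genes of highest r, of which 1 for Brca2 is not reported here. The genes and lists were chosen with earlier results of these data known. Positions and transcripts came from GENCODE vM1 on mm9. Fragment numbers are rough estimates from the spacing of values below 0.3 FPKM and cover counting error only. Alternatives were other scalings, a pseudocount of 0.1 FPKM, other filters, the replicate block, fits of fewer groups, no trend and leaving out each library.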

Additional observations from a re-analysis of the deposited data

Results flagged for a closer look

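Results are listed here because the knockout effect differed between stages by the interaction test of limma. Each value is a difference of log2 fold changes of null against WT on the log2(FPKM + 1) scale. Genes of the wider list were taken from those named for their large folds at single stages in the same libraries. That choice favours a difference between stages, so their tests are not independent of it. Of all genes tested, 33.9% passed with a positive difference of MII minus GV, and 15.1% with the ERCC factor divided out. The knockout effect at MII minus that at GV was 0.71 for Atr (adjusted p = 0.0323), 0.76 for Brca1 (adjusted p = 0.0279) and 0.74 for Trp63 (adjusted p = 0.0362), and with the ERCC factor divided out it was 0.32, 0.18 and 0.15 (adjusted p = 0.529, 0.735 and 0.739).

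For genes of the wider list the same difference was 3.80 for Cetn2 (adjusted p = 3.46e-06), 1.98 for Nthl1 (adjusted p = 0.00062), 1.80 for H2afx (adjusted p = 0.00055), 1.57 for Nhej1 (adjusted p = 0.00205) and 1.52 for Topbp1 (adjusted p = 0.00151). These 5 also passed the test without the ERCC factor (3.39, 1.83, 1.55, 1.06 and 1.12, adjusted p = 6.48e-07, 0.000979, 0.00147, 0.00518 and 0.0409). It was 1.17 for Fancl (adjusted p = 0.00885), 1.11 for Rad51l1 (adjusted p = 0.0415), 0.91 for Xrcc2 (adjusted p = 0.0405), 0.77 for Lig4 (adjusted p = 0.0118) and 0.52 for Smug1 (adjusted p = 0.0495), none of which passed without the factor (adjusted p = 0.172, 0.144, 0.465, 0.718 and 0.625).

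The knockout effect at GV minus that in growing oocytes was -1.40 for Lig4 (adjusted p = 0.00223), -1.11 for Wee1 (adjusted p = 0.0165) and -0.92 for Rad23b (adjusted p = 0.0438). Without the factor Lig4 passed (-1.40, adjusted p = 0.00564), and Wee1 (-0.99, adjusted p = 0.136) and Rad23b (-0.77, adjusted p = 0.21) did not. Of all genes tested, 11.3% passed with a negative difference here, and 3.72% without the factor.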

How the results depend on the processing

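Counts below are of the 7 tested checkpoint and repair genes unless the wider list is named, and the main count stands first. With the ERCC factor divided out, the calls of null against WT went from 3 to 0 in growing oocytes, from 5 to 1 at GV and from 1 to 3 at MII, those of growth from 2 to 0 in WT and from 6 to 0 in null oocytes, those of WT maturation from 7 to 4 and those of the genotype difference in maturation from 3 to 0. Scaling each library to an equal median gave 0, 1 and 3 calls of null against WT, 0 and 0 for growth and 1 for the genotype difference in maturation, that of Msh6 (-1.07, adjusted p = 0.0211). Without the factor the wider list gave 27 calls in growing oocytes against 41 and 15 at GV against 53, and with median scaling 25, 17 and, at MII, 54 against 34. Of all genes, median scaling called 11.8% lower and 13.2% higher in growing oocytes, and 11% and 8.3% at GV. At MII it called 27.5% lower and 24.8% higher, and 11.1% had a negative genotype difference in maturation that passed. Without the factor these shares were 12.3% and 14.9% in growing oocytes and 13.5% and 7.19% at GV. Many log2 changes turned sign under these scalings, and the values are given without the factor first and with median scaling second. For null against WT in growing oocytes these were Atr (0.139, 0.12) and Brca2 (0.024, 0.00367). For null against WT at GV these were Brca2 (0.0974, 0.175). For null against WT at MII these were Brca1 (-0.0974, -0.164) and Brca2 (-0.0924, -0.16). For WT growth these were Chek1 (0.07, 0.0894), Brca1 (0.303, 0.32), Brca2 (0.0685, 0.0867) and Msh6 (0.146, 0.164). For null growth these were Chek1 (0.0353, 0.157), Brca1 (0.071, 0.181) and Brca2 (0.142, 0.258). For WT maturation these were Chek1 (1.01, 1.66), Chek2 (0.0485 under median scaling only), Brca1 (0.00291, 0.609), Brca2 (0.973, 1.61), Msh6 (0.614, 1.25) and Trp63 (0.53 under median scaling only). For null maturation these were Chek1 (0.597, 1.09), Brca1 (0.181, 0.646), Brca2 (0.783, 1.27), Msh6 (0.182 under median scaling only) and Trp63 (0.092, 0.539). For the genotype difference in growth these were Chek1 (0.0671 under median scaling only), Chek2 (0.0325 under median scaling only), Brca2 (0.0734, 0.171) and Trp63 (0.0137 under median scaling only). For the genotype difference in maturation these were Chek1 (-0.414, -0.563), Chek2 (-0.464, -0.706) and Brca2 (-0.19, -0.335).

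A pseudocount of 0.1 FPKM gave 2 calls at MII (Chek2 added), 0 for WT growth, and a change of sign for Chek2 in the genotype difference in maturation (-0.186). Restricting the fit to genes that averaged 5 FPKM or more, which leaves fewer of the 7 genes, gave 0 calls for WT growth, 3 for null growth and 3 for null maturation, and on the wider list 23 in growing oocytes and 34 at GV. Without a filter on low values there were 0 calls for WT growth and 0 for the genotype difference in maturation, and 25 in growing oocytes on the wider list. Fitting only the groups compared gave 2 calls at GV, 0 for WT growth, 0 for the genotype difference in maturation and 31 at GV on the wider list, with fewer libraries to estimate the spread. An eBayes fit without a trend left these counts within 1.5 times of the main ones.

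With the replicate block there were 3, 5 and 2 calls of null against WT in growing, GV and MII oocytes, Chek1 at MII being added, null growth lost Brca1, null maturation gained Chek1, and no other call of the 7 genes changed. The numbers 1 and 2 are shared by all groups, and same-numbered libraries share a reference for the ERCC factor. The correlation of their deviations from the group means was positive in 13 of 15 pairs of groups and above 0.1 in 5 (range -0.11 to 0.194), and between genotypes it was 0.188, -0.11 and 0.0849 at the 3 stages. As it did not exceed 0.1 in every pair, and no source ties a number to an animal or day, the numbers were not taken as pairs. Exchanging the numbers of the null GV libraries, which was chosen after seeing the data because of the -0.11, gave 5 calls at GV and 57 on the wider list, against 5 and 56 with the replicate block as labelled.

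Leaving out 1 library at a time gave 1 to 3 calls in growing oocytes, 2 to 6 at GV, 0 to 3 for WT growth, 0 to 1 for the genotype difference in growth, 0 to 3 for that in maturation, 0 to 2 genes over 3-fold, and on the wider list 18 to 42 calls in growing oocytes and 30 to 55 at GV. The lowest GV counts, 2 and 30, were those without WT GV replicate 1. The single log2 changes that turned sign, of which none had passed the test, were in the genotype difference in growth Chek1 (range -0.434 to 0.0358) and Chek2 (-0.219 to 0.156, with 0.112 and 0.0397) and Brca2 (-0.21 to 0.0516), on leaving out GV libraries or null growing replicate 2. They were also Msh6 in the genotype difference in maturation without null GV replicate 1 (range -0.371 to 0.152), Brca1 in WT growth without WT growing replicate 1 (-0.162 to 0.057), and null against WT at MII Brca1 (-0.0529 to 0.248) and Brca2 (-0.139 to 0.399) without WT MII replicate 1 and Trp63 (-0.235 to 0.0999) without WT MII replicate 2 or null MII replicate 2. Where the scaling changed a call, the cause was not tested. Depth limits Atm and Chek2, whose lowest values rest on an estimated 28 and 5 fragments.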
